A study of Danio rerio with 8 samples.

Results

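Receptors through which neurons and muscle fibres sense the transmitters GABA, glycine, acetylcholine and glutamate were examined in zebrafish larvae with a mutation in seph. That gene, now named selenoh, encodes the selenium-containing nuclear protein selenoprotein H. The genes were chosen by symbol, from the families of GABA-A and GABA-rho, glycine, nicotinic acetylcholine, AMPA, kainate, NMDA and metabotropic glutamate receptors, with at least 10 counts in at least 4 libraries. All 78 genes with such a symbol passed that count rule, out of 32434 genes in the table. They carry 62 symbols, of which 16 belong to 2 Ensembl IDs each, and the ID is given where a symbol is shared. The member nearest the count rule was a chrnb1 gene (ENSDARG00000022532), with 29, 9, 17 and 17 counts in wild type and 50, 29, 48 and 13 in the mutant, and no gene with such a symbol lay outside it.

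The study compared 4 libraries from larvae labelled as seph mutant with 4 from wild type larvae. Both groups were whole larvae of 5 days post fertilization, lysed in TRIzol, and polyadenylated RNA was sequenced. The labels name neither the allele nor the strain, and they do not say how many larvae were pooled or whether replicates came from separate clutches. The p-values therefore describe how far these particular samples vary, and that variation may be technical.

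Most of these receptors are assembled from several subunits around an ion channel. GABA-A, GABA-rho and glycine receptors pass chloride and usually inhibit the cell. Nicotinic, AMPA, kainate and NMDA receptors pass cations and excite it, and metabotropic glutamate receptors signal through G proteins instead of a channel. The choice of subunit sets where a receptor sits and how fast it responds. In the retina, for example, ON bipolar cells read the glutamate released by photoreceptors through a metabotropic receptor, and GABA-rho receptors sit on bipolar cell terminals. At the neuromuscular endplate, a nicotinic receptor made of muscle subunits turns the motor neuron's acetylcholine into contraction. Many receptor genes are present in zebrafish as 2 copies that arose in a genome duplication of the teleost fish lineage.

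Libraries held 51246749 to 56409917 counts. A count of 0 thus leaves room for up to 3 counts, or 0.0532 to 0.0588 CPM, the count relative to the library total. That limit covers counting error only. selenoh itself had 854, 855, 1225 and 737 counts in wild type replicates 1 to 4 and 1, 20, 0 and 0 counts in mutant replicates 1 to 4, so the mutant mean was 0.543% of the wild type mean (p = 0.0286 in an exact permutation test, two-sided, which can give no smaller value with 4 libraries a group). The 2 replicate 3 libraries stood apart from the rest of their groups. Wild type replicate 3 differed from the other wild type libraries by a mean squared difference of 108 to 146 in units of counting noise, against 8.10 to 37.7 among those. For mutant replicate 3 the distances were 86.0 to 95.9, against 29.4 to 52.9 among the other mutant libraries. Counts without both of them are given beside those from all 8 libraries where they differ.

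In the mutant, 29 of the 78 receptor genes fell and 2 rose at an adjusted p under 0.05 in the quasi-likelihood test of edgeR, with Benjamini-Hochberg adjustment over 27050 genes. The 29 make 37.2% of the receptor genes, where 8.45% of all tested genes fell. The 2 make 2.56%, where 8.65% of all tested genes rose. The median log2 fold change of the 78 was -0.28, against 0.0082 over all tested genes, and 70.5% of them had a fold change below 0, against 49.2%. For 30 receptor genes, or 38.5%, all mutant values were under all wild type values, where 11.1% of all tested genes did so. The opposite order held for 2 receptor genes, where 11% of all tested genes had it.

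Most decreases were moderate. Among the 29 genes, 6 stood at 50% of the wild type level or less, 15 between 50% and 75% and 8 above 75%. None of the 72 genes outside the muscle nicotinic class rose, in edgeR or the DESeq2 Wald test, and at an unadjusted edgeR p under 0.05 the number was also 0, against 38 lower, where 16.1% of all tested genes were higher and 15.8% lower at that threshold. The summed level of the 78 genes was 2264, 2105, 1925 and 2045 CPM in wild type replicates 1 to 4 and 1621, 1699, 1809 and 1653 CPM in mutant replicates 1 to 4. No mutant library reached the lowest wild type library, which was replicate 3, and the highest mutant library was also replicate 3. The ratio of the group means was 0.813. In whole larvae, fewer cells of a type and less RNA per cell cannot be told apart.

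**Figure D1:**
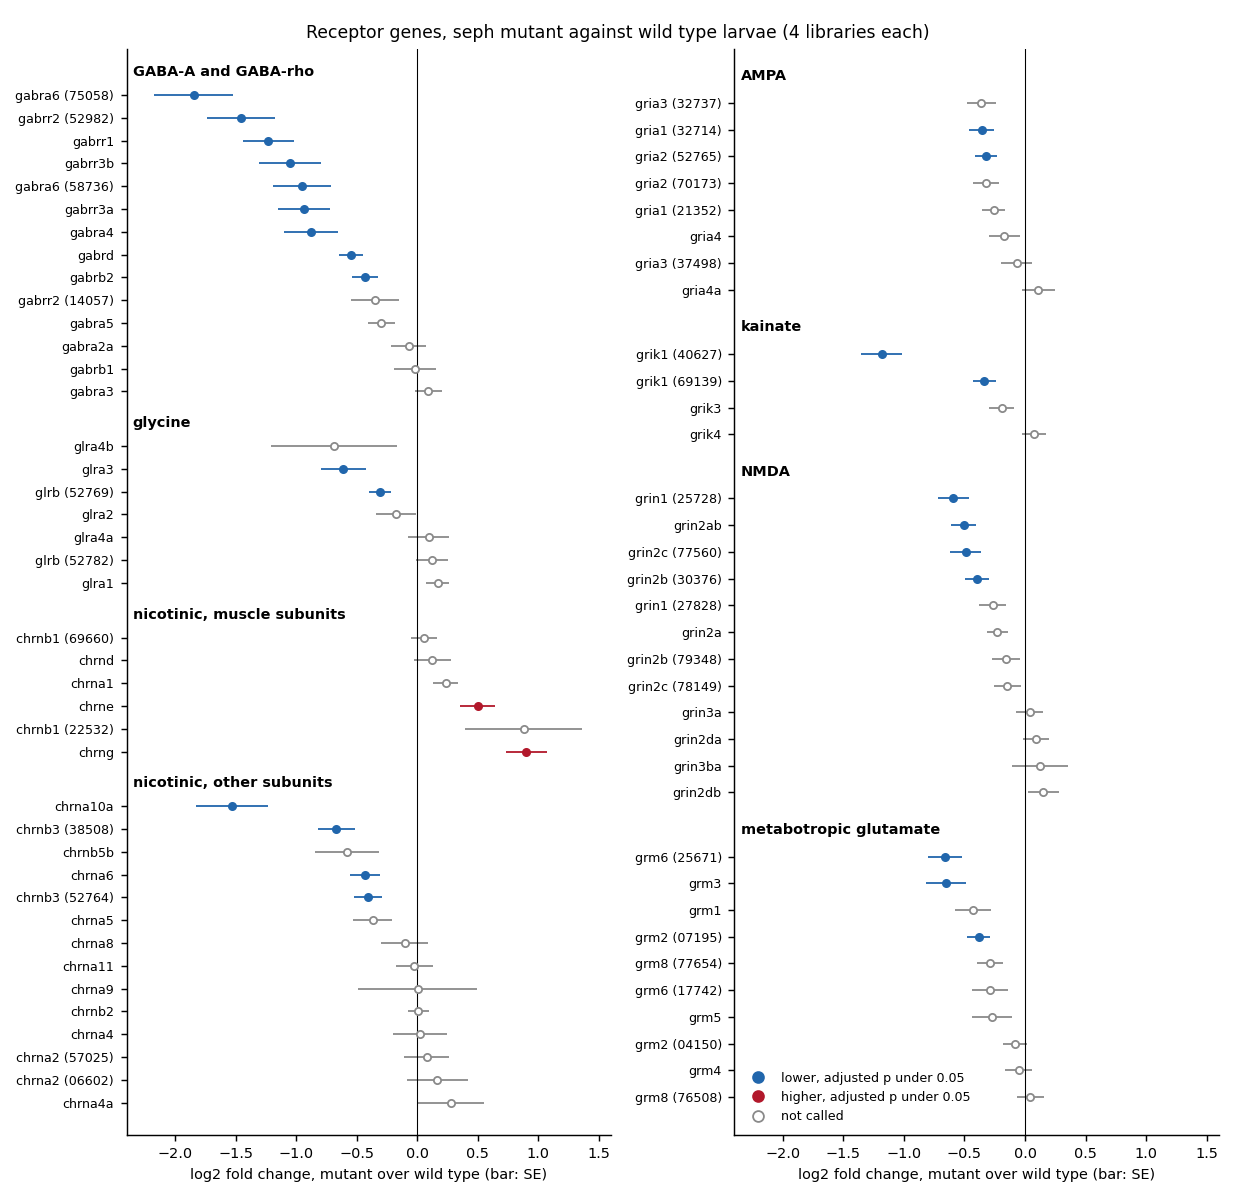
Log2 fold change of 75 of the 78 receptor genes, mutant over wild type, by class, with the standard error as a bar and filled symbols for genes with an adjusted p under 0.05. Filled blue symbols mark 26 genes that fell, 9 of them in the GABA-A and GABA-rho class, and filled red symbols the 2 muscle nicotinic subunits that rose. Numbers in brackets are the last digits of the Ensembl ID.

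How many genes passed depended on single libraries. The 29 decreases became 11 without wild type replicate 1, where 4.73% of all tested genes fell, and 11 without wild type replicate 2, where 4.51% fell. Leaving out mutant replicate 1 gave 14 (4.85% of all tested genes), as did leaving out mutant replicate 2 (4.97%). Without wild type replicate 4 the number was 15 (6.36%), and without mutant replicate 4 it was 20 (6.49%). It stayed near 29 without mutant replicate 3, at 28 (8.47%), and without wild type replicate 3, at 32 (12.3%). Without both replicate 3 libraries, 38 receptor genes fell, including all 29, where 14.6% of all tested genes fell.

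Of the 31 genes called in either direction, 11 were called in each of the 8 fits that left out 1 library, among them gabrd, gabrr1, a gabra6 gene, a gabrr2 gene, a grik1 gene, a grin1 gene, grin2ab, a grm6 gene, chrna10a and chrng. Another 16 were called in 1 to 3 of these fits, with adjusted p up to 0.13. With library size as the only scaling, 19 receptor genes fell, where 6.09% of all tested genes did and the median of all tested genes moved from 0.0082 to 0.084. With no filter on low counts 23 fell (6.48% of all tested genes), with the DESeq2 Wald test 35 (12.3%) and with the replicate numbers as a block 34 (13.4%). DESeq2 size factors gave 29 (8.76%), as did a filter at a mean of 50 counts (10.2%).

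Markers of retinal cell types moved as well. Which cell types carry the receptor genes in these larvae was not tested. Of 24 ON bipolar markers, 19 fell and none rose in edgeR, where 8.45% and 8.65% of all tested genes did. Their median log2 fold change was -0.95. The DESeq2 Wald test gave 21 lower and none higher, where 12.3% and 11.5% of all tested genes were. An unadjusted edgeR p under 0.05 gave 22 lower and none higher, where 15.8% and 16.1% were. The 24 markers summed to 885, 891, 995 and 873 CPM in wild type replicates 1 to 4 and 323, 418, 511 and 391 CPM in mutant replicates 1 to 4. A large part of that fall lies in gnb3b, at 307 ± 32.0 CPM in wild type and 61.1 ± 33.5 CPM in the mutant (SD, n = 4 each). Whether the listed genes are limited to ON bipolar cells, and not shared with photoreceptors or other neurons, was not tested. The most clearly lower were the calcium channel cacna1fa (log2 fold change -1.97 ± 0.24 SE, edgeR adjusted p = 0.001), the transcription factor bhlhe23 (log2 fold change -1.39 ± 0.17 SE, edgeR adjusted p = 0.00113) and rgs11, which speeds the shut-off of grm6 signalling (log2 fold change -1.45 ± 0.19 SE, edgeR adjusted p = 0.00144). Photoreceptor markers fell in 29 of 32 genes, with a median log2 fold change of -2.46. Their summed level was 3272, 3322, 4024 and 3479.5 CPM in wild type replicates 1 to 4 and 202, 828, 1104 and 506 CPM in mutant replicates 1 to 4. Mutant replicate 1 was the lowest and mutant replicate 3 the highest for both lists. The same order held for 9 of the 29 receptor genes that fell. How many of all tested genes have this order was not counted. Without both replicate 3 libraries 20 ON bipolar and 32 photoreceptor markers fell, where 14.6% of all tested genes did (8.45% with all 8 libraries). The photoreceptor list was led by saga, a rod arrestin (log2 fold change -2.37 ± 0.19 SE, edgeR adjusted p = 0.000137).

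Markers of amacrine, horizontal and ganglion cells fell in 15 of 26 genes and rose in 1, where 8.45% and 8.65% of all tested genes did. Without both replicate 3 libraries 18 fell and 2 rose, where 14.6% and 15.5% did. Their summed levels were 964 to 1119.9 CPM in wild type and 786 to 992 CPM in mutant libraries. The decreases were led by tfap2d (log2 fold change -1.67 ± 0.13 SE, edgeR adjusted p = 0.000116) and prox1 (log2 fold change -1.16 ± 0.09 SE, edgeR adjusted p = 0.000116). Of 23 general neuron markers, 2 were lower and 3 higher, where 8.45% and 8.65% of all tested genes were, and their median log2 fold change was -0.08. These counts changed to 2 to 5 lower and 0 to 2 higher without 1 library. They were 6 and 3 without both replicate 3 libraries (14.6% and 15.5% of all tested genes). In the DESeq2 Wald test they were 5 and 3 (12.3% and 11.5%). Their summed level was 2659.7 to 2769.5 CPM in wild type and 2300.2 to 2502 CPM in mutant libraries, a ratio of means of 0.879, without overlap. The snap25 gene ENSDARG00000058117, for a protein of vesicle fusion, fell (log2 fold change -0.71 ± 0.11 SE, edgeR adjusted p = 0.00325). It averaged 151 CPM in wild type and 92.0 CPM in the mutant. The other snap25 gene, ENSDARG00000020609, averaged 313 CPM in wild type and 310 CPM in the mutant. It did not pass (log2 fold change -0.02 ± 0.12 SE, edgeR adjusted p = 0.944). The neurofilament nefma rose (log2 fold change 0.32 ± 0.08 SE, edgeR adjusted p = 0.024). None of the tested marker genes had a library at 0 counts. The part of these cell types in the receptor results was not tested.

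**Figure D2:**
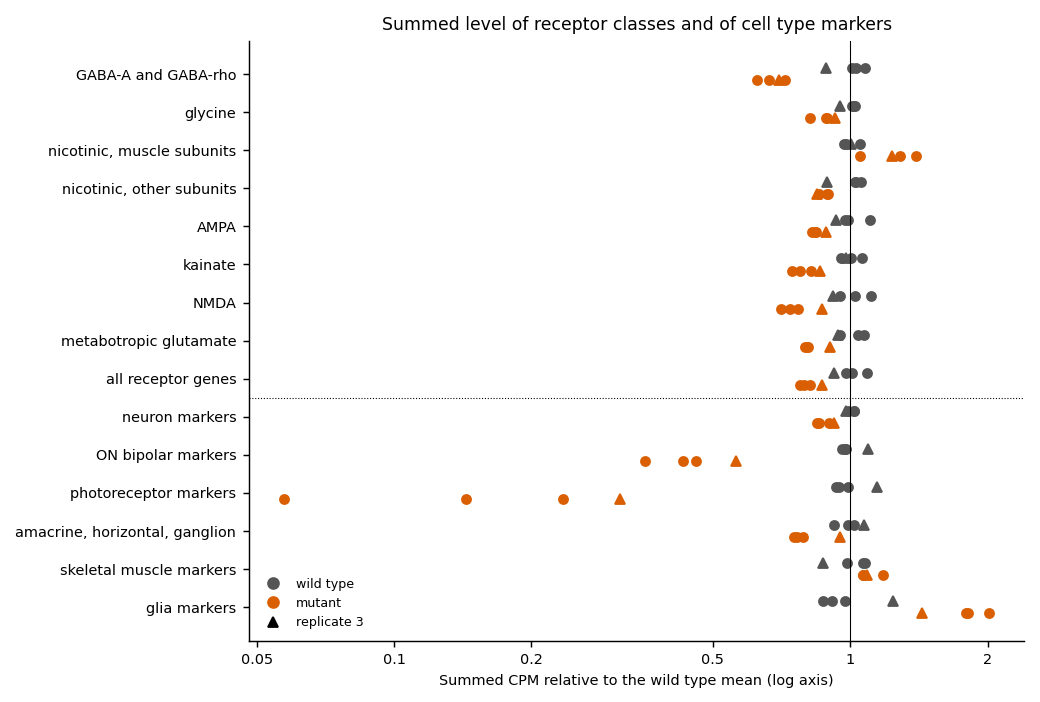
Summed CPM of each receptor class and each marker list in every library, relative to the wild type mean, on a log axis, with wild type in grey, mutant in orange and replicate 3 as a triangle. GABA-A and GABA-rho genes have the lowest mutant ratio of the 8 classes, 0.676, and the muscle subunits are the class above 1, at 1.24. The ratio is 0.187 for photoreceptor and 0.451 for ON bipolar markers. A large part of the ON bipolar fall lies in gnb3b, and whether the listed genes are shared with photoreceptors was not tested.

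The inhibitory receptors for GABA held the most decreases of any class. Of 17 genes, 12 fell and none rose, where 8.45% and 8.65% of all tested genes did. The median log2 fold change of the 17 was -0.55. Their summed level was 266 to 324 CPM in wild type libraries and 187 to 217 CPM in mutant libraries, a ratio of means of 0.676. The decreases included 4 of 5 rho genes.

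gabrd, the delta subunit of receptors outside synapses that carry a tonic current, stood at 46.3, 46.1, 36.5 and 43.6 CPM in wild type replicates 1 to 4 and at 28.6, 27.9, 29.8 and 31.4 CPM in mutant replicates 1 to 4. Wild type replicate 3 was the lowest of its group, and still lay above every mutant library (log2 fold change -0.55 ± 0.10 SE, edgeR adjusted p = 0.00639). gabrb2, a beta subunit, averaged 38.4 ± 3.57 CPM in wild type and 28.5 ± 2.98 CPM in the mutant (SD, n = 4 each), also without overlap (log2 fold change -0.43 ± 0.11 SE, edgeR adjusted p = 0.024).

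Among the alpha subunits, which with the beta subunits form the GABA binding site, both gabra6 genes fell. In mammals this subunit is typical of cerebellar granule cells. The copy ENSDARG00000075058 stood at 18.4, 15.9, 13.4 and 13.7 CPM in wild type replicates 1 to 4 and at 2.01, 5.04, 6.79 and 3.20 CPM in mutant replicates 1 to 4. Mutant replicate 1 was the lowest and mutant replicate 3 the highest of their group, and all 4 lay well below the lowest wild type library (log2 fold change -1.85 ± 0.33 SE, edgeR adjusted p = 0.00564). The copy ENSDARG00000058736 averaged 3.34 ± 0.935 CPM in wild type and 1.73 ± 0.261 CPM in the mutant (SD, n = 4 each), and its groups overlapped (log2 fold change -0.95 ± 0.24 SE, edgeR adjusted p = 0.0251). gabra4, in mammals a partner of the delta subunit, averaged 1.77 ± 0.252 CPM in wild type and 0.960 ± 0.225 CPM in the mutant (SD, n = 4 each, log2 fold change -0.88 ± 0.22 SE, edgeR adjusted p = 0.0258). The calls of gabra4, gabrb2 and this second gabra6 copy were lost in 5 or 6 of the 8 fits without 1 library. gabra2a, gabra3, gabra5 and gabrb1 did not pass the test, with log2 fold changes from -0.30 for gabra5 to 0.09 for gabra3.

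The rho subunits form GABA receptors of their own, known above all from retinal bipolar cells, and had a median log2 fold change of -1.05. gabrr1 stood at 11.8, 11.2, 8.60 and 12 CPM in wild type replicates 1 to 4 and at 2.89, 5.79, 4.86 and 5 CPM in mutant replicates 1 to 4. The groups were apart, with mutant replicate 1 the lowest library, at 42.6% of wild type on average (log2 fold change -1.23 ± 0.21 SE, edgeR adjusted p = 0.00487). The gabrr2 copy ENSDARG00000052982 averaged 10.1 ± 1.36 CPM in wild type and 3.67 ± 1.39 CPM in the mutant (SD, n = 4 each), also without overlap (log2 fold change -1.46 ± 0.28 SE, edgeR adjusted p = 0.00818). gabrr3a averaged 3.30 ± 0.373 CPM in wild type and 1.73 ± 0.449 CPM in the mutant (SD, n = 4 each, log2 fold change -0.93 ± 0.22 SE, edgeR adjusted p = 0.018), and its call was lost without wild type replicate 1. gabrr3b averaged 1.88 ± 0.339 CPM in wild type and 0.908 ± 0.235 CPM in the mutant (SD, n = 4 each, log2 fold change -1.05 ± 0.25 SE, edgeR adjusted p = 0.0216) and lost its call without wild type replicate 1 or 2. ON bipolar markers were lower in the same libraries, and their part in the decrease of the rho genes was not tested. The other gabrr2 copy, ENSDARG00000014057, did not pass at 2.07 ± 0.0882 CPM in wild type and 1.62 ± 0.386 CPM in the mutant (SD, n = 4 each, log2 fold change -0.35 ± 0.20 SE, edgeR adjusted p = 0.256).

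Of these 17 genes, 6 still fell without wild type replicate 1 or without wild type replicate 2, where 4.73% and 4.51% of all tested genes fell. Without both replicate 3 libraries 12 fell (14.6% of all tested genes). With library size as the only scaling 11 fell (6.09%).

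Glycine receptors, the main fast inhibitory receptors of spinal cord and brainstem, showed fewer decreases. Of 7 genes 2 fell and none rose, where 8.45% and 8.65% of all tested genes did. The median log2 fold change of the 7 was -0.18. Together they reached 98.1 to 106 CPM in wild type libraries and 84.1 to 95.6 CPM in mutant libraries, a ratio of means of 0.878. glrb (ENSDARG00000052769), the beta subunit that ties the receptor to the scaffold protein gephyrin, stood at 58.1, 59.9, 51.7 and 60.2 CPM in wild type replicates 1 to 4 and at 44.4, 45.4, 44.9 and 51.1 CPM in mutant replicates 1 to 4. Mutant replicate 4 came within 1 CPM of wild type replicate 3, without overlap (log2 fold change -0.31 ± 0.09 SE, edgeR adjusted p = 0.0457). glra3, an alpha subunit known from spinal cord and retina in mammals, stood at 5.96, 4.67, 5.51 and 6.55 CPM in wild type replicates 1 to 4 and at 2.89, 3.29, 4.77 and 3.92 CPM in mutant replicates 1 to 4. Its groups overlapped through mutant replicate 3 (log2 fold change -0.61 ± 0.18 SE, edgeR adjusted p = 0.049). Both calls lay at the edge of the threshold. None of the 7 passed without mutant replicate 1 or 2, without wild type replicate 1, 2 or 4, with library size as the only scaling, or with no filter on low counts. glra1, the alpha subunit of adult spinal receptors in mammals, did not pass (log2 fold change 0.17 ± 0.09 SE, edgeR adjusted p = 0.251), nor did the other glrb gene (log2 fold change 0.12 ± 0.13 SE, edgeR adjusted p = 0.575).

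AMPA receptors carry most fast excitation in the brain. Of the 8 subunit genes 2 fell and 7 had a fold change below 0, where 8.45% and 49.2% of all tested genes did. The median log2 fold change of the 8 was -0.29. Summed, they reached 584 to 696 CPM in wild type libraries and 519 to 556 CPM in mutant libraries, a ratio of means of 0.848. gria1 (ENSDARG00000032714) stood at 24.1, 22.4, 22.8 and 23.8 CPM in wild type replicates 1 to 4 and at 16.1, 18.4, 21.1 and 16.9 CPM in mutant replicates 1 to 4, without overlap (log2 fold change -0.36 ± 0.10 SE, edgeR adjusted p = 0.0429). gria2 (ENSDARG00000052765), the subunit that limits calcium entry, stood at 128, 121, 109.6 and 118 CPM in wild type replicates 1 to 4 and at 88.2, 91.2, 98.2 and 103 CPM in mutant replicates 1 to 4, also without overlap (log2 fold change -0.32 ± 0.09 SE, edgeR adjusted p = 0.0445). Neither call held without mutant replicate 1 or 2, without wild type replicate 1, 2 or 4, or with library size as the only scaling. Neither held with no filter on low counts, and no AMPA gene passed under any of these settings. Without both replicate 3 libraries 5 of the 8 fell, where 14.6% of all tested genes fell. gria3 (ENSDARG00000032737) narrowly missed the threshold (log2 fold change -0.36 ± 0.12 SE, edgeR adjusted p = 0.0663), and gria4 (ENSDARG00000059368) averaged 82.7 ± 11.4 CPM in wild type and 73.5 ± 7.40 CPM in the mutant (SD, n = 4 each) and did not pass (log2 fold change -0.17 ± 0.13 SE, edgeR adjusted p = 0.391). With the replicate numbers as a block, gria3 (ENSDARG00000032737) passed at an adjusted p of 0.0309 and the second gria2 gene (ENSDARG00000070173) at 0.032.

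Kainate receptors, which act on both sides of the synapse, were measured through 4 genes, and their summed level was 44.5 to 49.7 CPM in wild type libraries and 34.8 to 40.1 CPM in mutant libraries, a ratio of means of 0.800. Both grik1 genes fell, where 8.45% of all tested genes did, and grik3 and grik4 did not pass. The grik1 copy ENSDARG00000040627 stood at 11.6, 10.3, 10.7 and 9.31 CPM in wild type replicates 1 to 4 and at 3.63, 4.65, 6.10 and 4.06 CPM in mutant replicates 1 to 4. Every mutant library lay well below the wild type range (log2 fold change -1.18 ± 0.17 SE, edgeR adjusted p = 0.00214), at 44% of wild type on average. The copy ENSDARG00000069139 stood at 12.2, 12.4, 10.9 and 11 CPM in wild type replicates 1 to 4 and at 9.76, 8.98, 9.30 and 8.80 CPM in mutant replicates 1 to 4. Its groups were close but did not overlap (log2 fold change -0.34 ± 0.10 SE, edgeR adjusted p = 0.04), and the call held in only 1 of the 8 fits without 1 library. grik3 averaged 13.2 ± 0.870 CPM in wild type and 11.5 ± 0.977 CPM in the mutant (SD, n = 4 each, log2 fold change -0.19 ± 0.10 SE, edgeR adjusted p = 0.223).

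NMDA receptors, which open when glutamate release and depolarization coincide, fell in 4 of 12 genes, where 8.45% of all tested genes fell. The median log2 fold change of the 12 was -0.19. Added up, they reached 629.7 to 764 CPM in wild type libraries and 484 to 595 CPM in mutant libraries, a ratio of means of 0.769. grin1 is the obligatory subunit, and its copy ENSDARG00000025728 stood at 314, 288, 225 and 251 CPM in wild type replicates 1 to 4 and at 164, 178, 204 and 169.7 CPM in mutant replicates 1 to 4. The highest mutant library was replicate 3 and the lowest wild type library was also replicate 3, and the groups did not overlap (log2 fold change -0.59 ± 0.13 SE, edgeR adjusted p = 0.0143). The second grin1 gene (ENSDARG00000027828) averaged 253 ± 15.3 CPM in wild type and 211 ± 25.2 CPM in the mutant (SD, n = 4 each) and did not pass (log2 fold change -0.27 ± 0.11 SE, edgeR adjusted p = 0.13).

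The grin2 subunits bind glutamate and set the channel's kinetics. grin2ab stood at 34.6, 34.5, 26.8 and 32.6 CPM in wild type replicates 1 to 4 and at 21, 24, 22.8 and 22.5 CPM in mutant replicates 1 to 4 (log2 fold change -0.51 ± 0.10 SE, edgeR adjusted p = 0.0108). grin2b (ENSDARG00000030376), the predominant grin2 subunit of the embryonic mammalian forebrain, stood at 40.6, 37.1, 31.7 and 36.7 CPM in wild type replicates 1 to 4 and at 27.6, 25.5, 30.2 and 27.6 CPM in mutant replicates 1 to 4 (log2 fold change -0.40 ± 0.10 SE, edgeR adjusted p = 0.0256). grin2c (ENSDARG00000077560), which in mammals is typical of the cerebellum, stood at 7.95, 7.19, 6.08 and 7.07 CPM in wild type replicates 1 to 4 and at 4.34, 5.31, 5.39 and 5.12 CPM in mutant replicates 1 to 4 (log2 fold change -0.49 ± 0.13 SE, edgeR adjusted p = 0.031). In each of these 3 genes wild type replicate 3 was the lowest wild type library, and all mutant libraries lay below it. The calls of grin2ab and grin1 held without any single library, while those of grin2b and grin2c were lost when replicate 1, 2 or 4 of either group was left out. Without both replicate 3 libraries 6 of the 12 genes fell, where 14.6% of all tested genes fell. The grin2d and grin3 genes, 4 in all, had log2 fold changes from 0.04 to 0.15 and none passed. The second grin2c gene (ENSDARG00000078149) did not pass either (log2 fold change -0.15 ± 0.11 SE, edgeR adjusted p = 0.415).

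Among the metabotropic glutamate receptors 3 of 10 genes fell and 9 had a fold change below 0, where 8.45% and 49.2% of all tested genes did. The median log2 fold change of the 10 was -0.29. Summed, they reached 144 to 164 CPM in wild type libraries and 122 to 138 CPM in mutant libraries, a ratio of means of 0.826. grm6 is the receptor with which ON bipolar cells of the retina sense photoreceptor glutamate. Its copy ENSDARG00000025671 stood at 16.9, 14.8, 14 and 13.3 CPM in wild type replicates 1 to 4 and at 7.79, 8.87, 11.7 and 9 CPM in mutant replicates 1 to 4. Mutant replicate 3 was the highest mutant library, and the groups did not overlap (log2 fold change -0.66 ± 0.14 SE, edgeR adjusted p = 0.0126). The part of ON bipolar cells, whose markers were lower in the same libraries, was not tested. The second grm6 gene (ENSDARG00000017742) averaged 3.16 ± 0.294 CPM in wild type and 2.59 ± 0.299 CPM in the mutant (SD, n = 4 each) and did not pass (log2 fold change -0.29 ± 0.15 SE, edgeR adjusted p = 0.216).

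grm2 and grm3 encode receptors that lower cyclic AMP and damp transmitter release. grm3 stood at 8.26, 7.76, 7.91 and 5.94 CPM in wild type replicates 1 to 4 and at 4.32, 4.11, 5.99 and 4.56 CPM in mutant replicates 1 to 4. Its groups overlapped narrowly, since mutant replicate 3 lay just above wild type replicate 4 (log2 fold change -0.65 ± 0.16 SE, edgeR adjusted p = 0.0243). grm2 (ENSDARG00000007195) stood at 25.3, 24.1, 21.8 and 23.6 CPM in wild type replicates 1 to 4 and at 17, 17.2, 18.1 and 20.4 CPM in mutant replicates 1 to 4, without overlap (log2 fold change -0.38 ± 0.10 SE, edgeR adjusted p = 0.0256). Only the grm6 call held without every single library. When replicate 1 or 2 of either group was left out, 1 metabotropic gene fell, where 4.51% to 4.97% of all tested genes fell. Without both replicate 3 libraries 6 fell, where 14.6% of all tested genes fell. grm4, which averaged 26.7 ± 3.40 CPM in wild type and 25.7 ± 1.45 CPM in the mutant (SD, n = 4 each), did not pass (log2 fold change -0.05 ± 0.11 SE, edgeR adjusted p = 0.777).

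**Figure D3:**
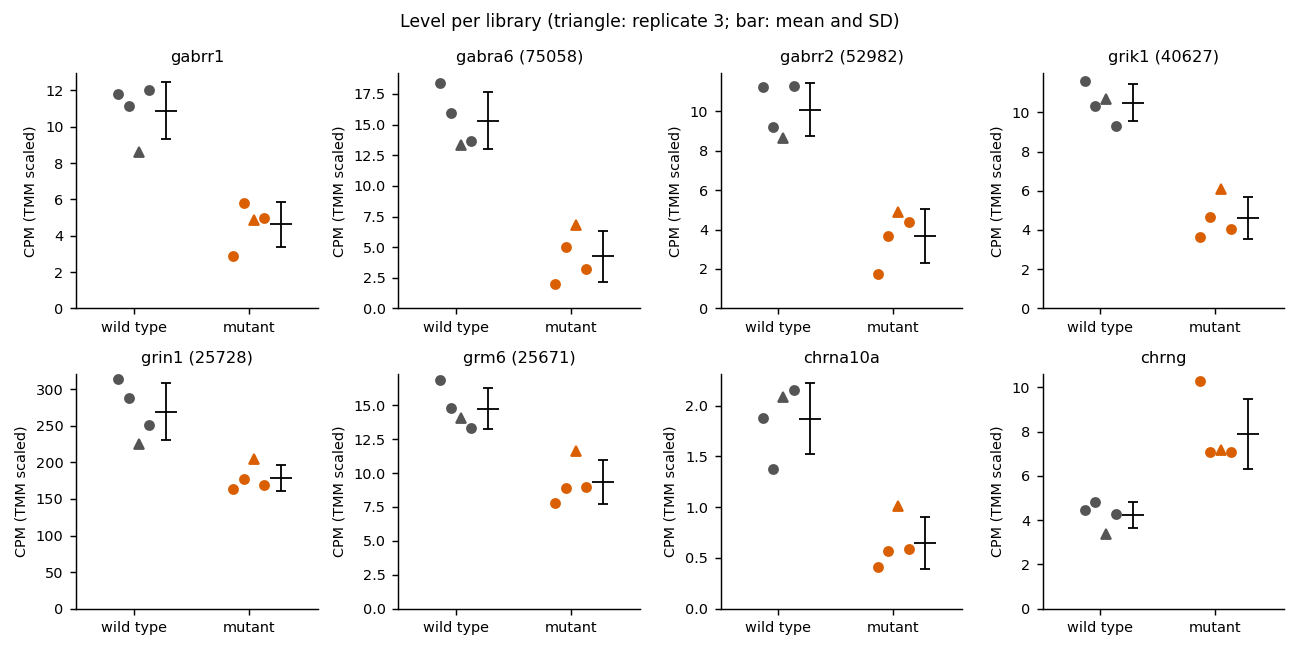
Level of 8 receptor genes in each library, in CPM with TMM scaling, for wild type (grey) and mutant (orange), with replicate 3 as a triangle and the mean and SD (n = 4) beside the points. In 7 of the panels every mutant point lies below every wild type point, and in the panel of chrng every mutant point lies above. The 8 genes were picked with their values known, and all are called genes without overlap. The 3 genes that fell with overlapping groups are not drawn. Of all tested genes, 11.1% had every mutant value below and 11% every mutant value above.

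The 2 receptor genes that rose were both subunits of the nicotinic receptor of skeletal muscle. This receptor combines alpha, beta and delta subunits with a gamma subunit in foetal and an epsilon subunit in adult mammalian muscle. chrng, the gamma subunit, stood at 4.47, 4.80, 3.39 and 4.27 CPM in wild type replicates 1 to 4 and at 10.3, 7.10, 7.16 and 7.10 CPM in mutant replicates 1 to 4. Mutant replicate 1 was the highest library and the other mutant libraries lay close together, all above wild type (log2 fold change 0.90 ± 0.17 SE, edgeR adjusted p = 0.00761). chrne, the epsilon subunit, stood at 20.6, 22.9, 21.1 and 23.2 CPM in wild type replicates 1 to 4 and at 29.7, 41.1, 27 and 26.4 CPM in mutant replicates 1 to 4. Mutant replicate 2 was the highest, and the groups did not overlap (log2 fold change 0.50 ± 0.15 SE, edgeR adjusted p = 0.0441).

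All 6 muscle subunit genes had a fold change above 0, with a median log2 fold change of 0.37, and this held under each scaling tried. Without mutant replicate 1 or without wild type replicate 3, 1 of the 6 was below 0. The 6 genes together reached 85.8 to 93.1 CPM in wild type libraries and 93 to 124 CPM in mutant libraries, a ratio of means of 1.24. The 4 genes that did not pass ranged from 0.06 to 0.88 on the log2 scale. chrna1, which carries the main acetylcholine binding face, averaged 37.1 ± 2.17 CPM in wild type and 43.7 ± 4.84 CPM in the mutant (SD, n = 4 each, log2 fold change 0.24 ± 0.10 SE, edgeR adjusted p = 0.147). The value of 0.88 belonged to the sparsely counted chrnb1 gene (ENSDARG00000022532), with an SE of 0.48. The call of chrng held without any single library, whereas that of chrne was lost without mutant replicate 1 or 2 and without any of the wild type libraries.

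Of 37 skeletal muscle markers, 1 was higher and 3 were lower, where 8.65% and 8.45% of all tested genes were, and their median log2 fold change was 0.17. The DESeq2 Wald test called 7 higher and 3 lower, where 11.5% and 12.3% of all tested genes were. Without both replicate 3 libraries edgeR called 6 higher and 5 lower, where 15.5% and 14.6% were. Their summed level was 93294, 94154, 75964 and 86089 CPM in wild type replicates 1 to 4 and 93012, 93319, 95217 and 103330 CPM in mutant replicates 1 to 4. The groups overlapped, and the ratio of means was 1.1. The muscle marker that rose was casq1, the calcium buffer of the sarcoplasmic reticulum (ENSDARG00000018105, log2 fold change 0.60 ± 0.10 SE, edgeR adjusted p = 0.00483). The markers that fell were 2 genes of the fast troponin tnni2, ENSDARG00000035958 (log2 fold change -0.41 ± 0.09 SE, edgeR adjusted p = 0.0177) and ENSDARG00000045592 (log2 fold change -0.54 ± 0.13 SE, edgeR adjusted p = 0.023), and the muscle transcription factor myog (log2 fold change -0.96 ± 0.24 SE, edgeR adjusted p = 0.0271), the last named with its value known. A far more abundant tnni2 gene, ENSDARG00000029069, averaged 1607 ± 92.7 CPM in wild type and 1986.5 ± 99.2 CPM in the mutant (SD, n = 4 each). It did not pass (log2 fold change 0.31 ± 0.10 SE, edgeR adjusted p = 0.059), and further tnni2 genes that did not pass lay on both sides of 0. Of 12 other endplate genes, rapsn rose and 1 fell, where 8.65% and 8.45% of all tested genes did. Without both replicate 3 libraries 1 rose and 3 fell, where 15.5% and 14.6% did. rapsn encodes rapsyn, which clusters the muscle receptor beneath the nerve ending (log2 fold change 0.51 ± 0.10 SE, edgeR adjusted p = 0.00885). The part of muscle tissue in the increase of chrng and chrne was not tested.

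The remaining nicotinic genes, most of them known from neurons or sensory cells, included 4 that fell and none that rose among 14. Of all tested genes 8.45% fell and 8.65% rose. The median log2 fold change of the 14 was -0.06. Together these genes reached 68 to 80.5 CPM in wild type libraries and 64.6 to 68.1 CPM in mutant libraries, a ratio of means of 0.871. chrna10a, whose mammalian counterpart serves the efferent synapse on inner ear hair cells, stood at 1.87, 1.38, 2.09 and 2.16 CPM in wild type replicates 1 to 4 and at 0.416, 0.572, 1.01 and 0.586 CPM in mutant replicates 1 to 4. The level was low but the groups did not overlap, and the mutant stood at 34.6% of wild type on average (log2 fold change -1.53 ± 0.30 SE, edgeR adjusted p = 0.00842). These values rest on 23 to 115 counts per library.

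chrna6 and chrnb3 can assemble with each other, in mammals in dopamine neurons and retinal ganglion cells. chrnb3 (ENSDARG00000038508) stood at 4.47, 4.26, 3.08 and 4.06 CPM in wild type replicates 1 to 4 and at 2.62, 2.50, 2.39 and 2.47 CPM in mutant replicates 1 to 4, with narrow mutant values below all wild type values (log2 fold change -0.67 ± 0.15 SE, edgeR adjusted p = 0.0168). The second chrnb3 gene (ENSDARG00000052764) stood at 11.2, 11.5, 10.6 and 11.9 CPM in wild type replicates 1 to 4 and at 8.26, 8.99, 7.21 and 9.68 CPM in mutant replicates 1 to 4, also without overlap (log2 fold change -0.40 ± 0.11 SE, edgeR adjusted p = 0.0398). chrna6 stood at 8.56, 7.67, 7.73 and 9.09 CPM in wild type replicates 1 to 4 and at 5.15, 6.11, 6.57 and 6.62 CPM in mutant replicates 1 to 4, without overlap (log2 fold change -0.43 ± 0.12 SE, edgeR adjusted p = 0.0402). These 3 fold changes were smaller than that of chrna10a, and their calls were lost without wild type replicate 1 or 2, and for 2 of them in 6 of the 8 fits. chrnb2, the common beta subunit of brain receptors, averaged 22.6 ± 1.76 CPM in wild type and 22.7 ± 0.231 CPM in the mutant (SD, n = 4 each) and did not pass (log2 fold change 0.01 ± 0.09 SE, edgeR adjusted p = 0.97). Of the 14 genes, 1 fell without wild type replicate 1 (4.73% of all tested genes) or 2 (4.51%). With library size as the only scaling 2 fell (6.09%), and without both replicate 3 libraries 5 fell (14.6%).

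Copies of the same receptor gene could be set against each other within a library, as a log2 ratio of counts. Of 21 pairs, 4 had both copies lower, 10 had 1 copy lower and 7 had none. The difference of the ratio between the groups reached the smallest exact two-sided permutation p of 0.0286 in 7 pairs. Adjusted over the 21 pairs this is 0.0857, so no pair passed. With 4 libraries a group, pairs could pass only if many of the 21 stood at that smallest p. The adjusted test therefore cannot tell whether a single pair changed. In these 7 pairs the ratios of the 2 groups did not overlap. For gabrr2 the log2 ratio of ENSDARG00000014057 over ENSDARG00000052982 was -2.27 ± 0.25 in wild type and -1.10 ± 0.47 in the mutant (SD, n = 4 each), a difference of 1.17. For gabra6 the ratio of ENSDARG00000058736 over ENSDARG00000075058 was -2.24 ± 0.37 in wild type and -1.17 ± 0.74 in the mutant (SD, n = 4 each), a difference of 1.07. The grik1 ratio of ENSDARG00000040627 over ENSDARG00000069139 was -0.15 ± 0.11 in wild type and -1.02 ± 0.34 in the mutant (SD, n = 4 each), a difference of -0.87. These were the widest of the 7, and in each the copy with the larger decrease had its own call without any single library.

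Smaller shifts were seen in 4 pairs. The grm6 ratio of ENSDARG00000017742 over ENSDARG00000025671 was -2.22 ± 0.18 in wild type and -1.84 ± 0.15 in the mutant (SD, n = 4 each), a difference of 0.38. The ratio of grin2c copies, ENSDARG00000077560 over ENSDARG00000078149, was -0.38 ± 0.10 in wild type and -0.71 ± 0.15 in the mutant (SD, n = 4 each), a difference of -0.34. The grin1 ratio of ENSDARG00000025728 over ENSDARG00000027828 was 0.08 ± 0.17 in wild type and -0.23 ± 0.04 in the mutant (SD, n = 4 each), a difference of -0.31. For these receptors 1 copy fell and the other did not pass. In the pair of gria4 (ENSDARG00000059368) over gria4a (ENSDARG00000037496) neither copy passed, and the ratio was 0.69 ± 0.04 in wild type and 0.40 ± 0.15 in the mutant (SD, n = 4 each), a difference of -0.29. The 2 gria2 copies had nearly equal fold changes, with a ratio difference of 0.0039 (exact p = 0.971, adjusted p = 0.971). How reads that fit both of 2 near-identical copies were counted was not given in the sources used here, so single copies are uncertain. No receptor gene had the same 8 counts as another gene.

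**Figure D4:**
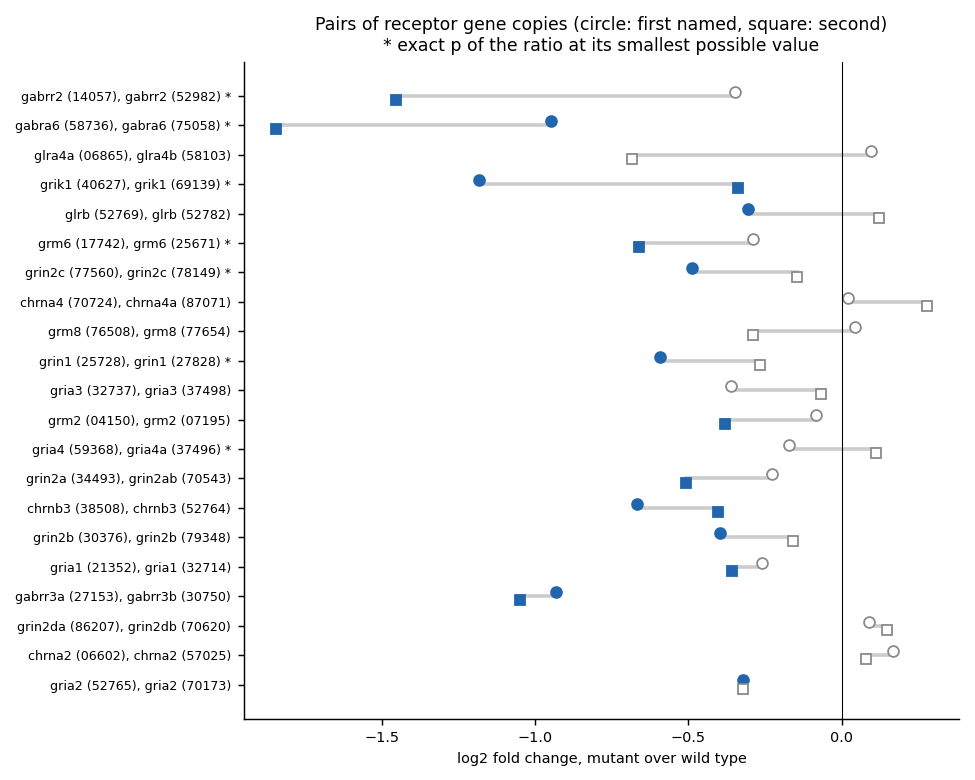
Log2 fold change of both copies in 21 pairs of receptor genes, the first named as a circle and the second as a square, filled where the adjusted p is under 0.05. The pairs are ordered by the size of the difference of their ratio, and the stars mark the 7 pairs at the smallest exact p of 0.0286. The longest lines belong to gabrr2 and gabra6, and the gria2 copies coincide.

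Several receptors exchange 1 subunit for another as mammalian neurons and muscle mature, and 4 such ratios were compared as log2 ratios of summed counts. None passed, and 3 are given here. A single ratio could not have passed after adjustment, even at the smallest possible exact p. The difference between mutant and wild type was -0.02 (exact two-sided permutation p = 0.714, adjusted over 4 ratios 0.714) for grin2a over grin2b. It was -0.42 (exact two-sided permutation p = 0.114, adjusted over 4 ratios 0.229) for chrne over chrng and 0.35 (exact two-sided permutation p = 0.114, adjusted over 4 ratios 0.229) for glra1 over glra2. Both grin2a and grin2b genes had fold changes below 0, and the muscle gamma and epsilon subunits both rose.

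Genes of transmitter synthesis and transport, of synaptic scaffolds, of the endplate and of related receptors were followed in 5 lists. The lists hold 128 tested genes besides the receptor genes above, and 26 of them come from the list of related receptors. Of the 128, 7 rose and 15 fell, where 8.65% and 8.45% of all tested genes did. With the replicate numbers as a block 11 rose and 26 fell, where 14% and 13.4% of all tested genes did. Among 27 genes of transmitter synthesis and transport, 4 rose and 4 fell. Without both replicate 3 libraries 4 rose and 7 fell, where 15.5% and 14.6% of all tested genes did. slc17a7, a vesicular transporter that loads glutamate, fell in both copies. The copy ENSDARG00000090106 stood lower in every mutant library than in any wild type library (log2 fold change -1.07 ± 0.13 SE, edgeR adjusted p = 0.000991), and so did the copy ENSDARG00000016480 (log2 fold change -1.94 ± 0.28 SE, edgeR adjusted p = 0.00212). Other slc17a genes did not pass. They were slc17a6 (ENSDARG00000041150, 72.9 CPM in wild type and 71.8 CPM in the mutant, log2 fold change -0.02 ± 0.08 SE, edgeR adjusted p = 0.882), its second gene (ENSDARG00000001127, log2 fold change -0.05 ± 0.15 SE, edgeR adjusted p = 0.85) and slc17a8 (log2 fold change -0.56 ± 0.22 SE, edgeR adjusted p = 0.118). slc1a3 (ENSDARG00000043148), a glial transporter that clears glutamate, rose (log2 fold change 1.43 ± 0.13 SE, edgeR adjusted p = 0.000276). Other genes of the slc1a transporter family fell, namely slc1a2 (ENSDARG00000052138, log2 fold change -2.95 ± 0.47 SE, edgeR adjusted p = 0.00353) and slc1a8b (log2 fold change -3.04 ± 0.56 SE, edgeR adjusted p = 0.00684). The remaining increases were gls (ENSDARG00000040705, log2 fold change 0.47 ± 0.10 SE, edgeR adjusted p = 0.0107), slc6a11a (log2 fold change 0.87 ± 0.19 SE, edgeR adjusted p = 0.0153) and slc6a11 (log2 fold change 0.39 ± 0.10 SE, edgeR adjusted p = 0.0271). The second gls gene, ENSDARG00000062812, did not pass (log2 fold change -0.22 ± 0.12 SE, edgeR adjusted p = 0.259).

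Of 47 genes that scaffold or assist excitatory receptors, 9 fell and none rose, where 8.45% and 8.65% of all tested genes did. None rose by the DESeq2 Wald test (11.5% of all tested genes) or at an unadjusted edgeR p under 0.05 (16.1%). The median log2 fold change of the 47 was -0.21. nptx2, a secreted pentraxin that gathers AMPA receptors, changed most clearly (ENSDARG00000045164, log2 fold change -1.63 ± 0.26 SE, edgeR adjusted p = 0.00351). neto2b, which encodes an auxiliary subunit of kainate receptors, also fell (log2 fold change -1.18 ± 0.24 SE, edgeR adjusted p = 0.00996), as did the kinase subunit camk2b (log2 fold change -0.55 ± 0.12 SE, edgeR adjusted p = 0.0149). The number of the 47 that fell was 2 without mutant replicate 2 (4.97% of all tested genes), wild type replicate 1 (4.73%) or wild type replicate 2 (4.51%). Without both replicate 3 libraries it was 19 (14.6% of all tested genes). Of 16 genes at inhibitory synapses, 1 rose and 1 fell, where 8.65% and 8.45% of all tested genes did. Without 1 library 0 to 2 rose and 0 to 3 fell, and without both replicate 3 libraries 2 and 5, where 15.5% and 14.6% of all tested genes did. The called genes were nsfb, an ATPase of membrane fusion (log2 fold change 0.64 ± 0.16 SE, edgeR adjusted p = 0.0279), and shisa7a, an auxiliary subunit of GABA-A receptors in mammals (log2 fold change -0.37 ± 0.10 SE, edgeR adjusted p = 0.0312). The calls of nsfb and shisa7a held in 3 and 2 of the 8 fits without 1 library. In the endplate list the gene that fell was tmem35a, the mammalian counterpart of which helps neuronal nicotinic receptors to assemble (log2 fold change -0.54 ± 0.10 SE, edgeR adjusted p = 0.00699).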

How the data were processed

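Polyadenylated RNA of whole larvae was sequenced in 4 seph mutant and 4 wild type samples. The deposited values are raw read counts, 1 whole number for each Ensembl gene and sample, and the authors used STAR 2.3.0e and HTSeq 0.6.0, per the submitters' processing notes. Genome build, annotation and strand setting were not given in the sources used here, so overlapping and antisense genes cannot be told apart. Symbols came from a table that named 20769 IDs.

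Genes were kept with filterByExpr (minimum count 10), scaled with TMM factors and tested with edgeR 4.0.16 in R 4.3.3, by the quasi-likelihood test on genotype alone, with p-values adjusted over 27050 genes after Benjamini and Hochberg. An adjusted p under 0.05 is called a change. CPM values are TMM scaled and not divided by transcript length, so levels are compared within a gene and not between genes. Ratios of gene copies used counts plus 0.5 and exact permutation tests over 70 arrangements, for pairs with a mean of at least 50 counts per copy. The 3 pairs with symbols ending in a and b were joined by 18 pairs that share a symbol or lack 1 of these letters, chosen after the symbols were seen.

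The members, lists and tests were chosen with earlier results of these data known. Of the list entries, 159 matched by symbol, 50 by a synonym, 78 once a last letter a or b was dropped, and 53 found no gene. The named receptor genes, 39 in all, are every called one, the 2 with the smallest p in a class with no called one, the highest level in each class, and both copies of each pair at the smallest exact p, and from each other list up to 3 called genes with the smallest p. chrnb1, glra1, the second glrb gene and genes named only as ends of a range fall outside that rule and were picked with their values known. So were slc1a2, slc1a8b, slc17a6, slc17a8, gls, slc6a11a, slc6a11, gnb3b, gabrz, gabrp and grid2ip. The same holds for the 2 stmn1 genes, the snap25 gene ENSDARG00000020609 and the tnni2 gene ENSDARG00000029069. A few other genes that meet it are left out of the text and figures.

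The closest libraries of a group were wild type replicates 1 and 2, 8.10 counting-noise units apart (mean squared difference over genes with at least 20 summed counts). They differed by more than counting noise, so all 8 libraries were counted separately. Over all tested genes, deviations of same-numbered mutant and wild type libraries from their group means correlated at 0.177, 0.131, 0.579 and 0.364 for replicates 1 to 4. Libraries with different numbers correlated at up to 0.170, for mutant replicate 1 with wild type replicate 2. Mutant replicate 2 correlated more with wild type replicates 1 and 4, at 0.163 and 0.158, than with its own number. The pairing of replicates 1 and 2 is thus uncertain. All same-number values are over 0.1, the bar set for a pairing, so the numbers were taken to pair the samples, a reading from the data and not from the labels, and a fit with the replicate number as a block is among the alternatives. The others were DESeq2 1.42.0 size factors and Wald test, library size only, 2 other filters, and leaving out each library or both replicate 3 libraries. The steps were tested on simulated counts.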

Additional observations from a re-analysis of the deposited data

Results flagged for a closer look

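In 5 of 96 groups of 4 libraries, 1 library lay far from the other 3, measured by its gap to the nearest library over the whole range (Dixon's critical value for 4), which chance gives in about 1 of 20 groups. All 5 were mutant groups. Mutant replicate 1 had the lowest gabrr3b level, 0.56 CPM against 0.988 to 1.07 CPM in the other mutant libraries. For chrnb2 it was also lowest, at 22.3 CPM against 22.8 CPM in each of the others. For chrng it was the highest library, at 10.3 CPM against 7.10 to 7.16 CPM. Mutant replicate 4 had the highest level of the glrb gene ENSDARG00000052769, 51.1 CPM against 44.4 to 45.4 CPM. The summed level of the metabotropic glutamate receptors was highest in mutant replicate 3, at 138 CPM against 122 to 124 CPM. Each of these values apart from chrnb2 lay outside the wild type range.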

How the results depend on the processing

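The number of receptor genes that fell was 29, and it was 29 with DESeq2 size factors, 19 with library size only, 35 with the DESeq2 Wald test, 23 with no filter on low counts and 29 with a mean of at least 50 counts. With the replicate block it was 34, and all 31 called genes stayed called. gabra5 (edgeR adjusted p = 0.0467) and chrna5 (edgeR adjusted p = 0.0442) were among those gained. Without 1 library, 11 to 32 fell and 1 to 2 rose. The number that rose stayed at 2 under the other settings. The median log2 fold change moved from -0.28 to -0.20 with library size only and to -0.34 without both replicate 3 libraries. Of the 128 genes in the 5 lists of synapse and endplate genes and related receptors, 7 rose and 15 fell. The block gave 11 and 26 (14% and 13.4% of all tested genes). The DESeq2 Wald test gave 28 that fell (12.3%), and leaving out both replicate 3 libraries gave 40 (14.6%). Without 1 library, 4 to 9 rose and 7 to 25 fell. Signs turned only for values near 0. The log2 fold change of chrnb2, 0.01, became -0.0020 with DESeq2 size factors, -0.0019 with the Wald test and -0.036 without both replicate 3 libraries, and ran from -0.034 to 0.043 without 1 library. That of grm4, -0.05, became 0.029 with library size only and ran from -0.12 to 0.022. Without 1 library the difference in log2 ratio ran from -0.13 to 0.36 for gabrr3a over gabrr3b, from -0.16 to 0.19 for the chrna2 copies (-0.14 without both replicate 3 libraries), from -0.058 to 0.074 for the gria2 copies and from -0.0515 to 0.012 for grin2a over grin2b. The cause of these changes was not tested. With 3 libraries against 3 no exact p can fall under 0.10, so the ratio tests have no call there. Depth limits the genes with few counts per library, such as chrna10a and the sparse chrnb1 gene.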

Other observations

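Genes related to these receptors that the symbol rule left out were followed in 26 tested genes. Among them were gabrz and gabrp, which like the GABA-A class carry a gabr symbol, and grid2ip genes, which encode no receptor. None of these passed. Of the 26, 1 rose and none fell in edgeR, where 8.65% and 8.45% of all tested genes did. The median of the 26 was -0.18 on the log2 scale. At an unadjusted p under 0.05 the number that was lower was 6, gabrz and the grid2ip genes among them, where 15.8% of all tested genes were. It was 3 with the DESeq2 Wald test (12.3% of all tested genes) and 6 without both replicate 3 libraries (14.6%). The gene that rose was grinab (log2 fold change 0.55 ± 0.08 SE, edgeR adjusted p = 0.00289). Its symbol resembles those of the NMDA subunits, but it belongs to the TMBIM family of membrane proteins and is no glutamate receptor subunit.

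Of 18 tested glial markers, 5 were higher and 7 lower, where 8.65% and 8.45% of all tested genes were. Without both replicate 3 libraries 6 were higher and 7 lower, where 15.5% and 14.6% of all tested genes were. The median of the glial markers was -0.06 on the log2 scale. Their summed level was 1302 to 1854 CPM in wild type libraries and 2149.8 to 3012.5 CPM in mutant libraries. The rise of the mean sum was no larger than that of apoeb alone, an apolipoprotein gene named with its values known. The other glial markers together did not rise. apoeb stood at 689 ± 193 CPM in wild type and 1854 ± 375 CPM in the mutant (SD, n = 4 each). Its log2 fold change was 1.43 ± 0.22 SE (edgeR adjusted p = 0.003). her4.1, a Notch target of neural progenitors, was the clearest decrease (log2 fold change -1.37 ± 0.10 SE, edgeR adjusted p = 8.39e-05). mpz, a myelin protein, was also lower (log2 fold change -0.82 ± 0.12 SE, edgeR adjusted p = 0.00238).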
